A study of Danio rerio with 48 samples.

Results

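The 10 genes described here encode enzymes of gluconeogenesis and glycogen metabolism in zebrafish: pck1, pck2, fbp1a, fbp1b, fbp2, g6pca.1, g6pca.2, pygl, pygmb and gys2. They were taken by gene symbol from a table of 36109 genes, all 10 had a row, and all 10 passed the filter on low counts that left 26268 genes for testing. RNA was sequenced from yolk tissue and from whole embryos of wild type (WT) zebrafish at 6, 10, 26 and 48 hours post fertilization (hpf), with 4 libraries per tissue and age. No group carried a mutation or a treatment. The whole embryos still held their own yolk, so a yolk transcript was part of both tissues compared. The labels do not say whether the repeats were separate clutches, so p-values measure the spread between these samples.

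Gluconeogenesis builds glucose from lactate, amino acids and glycerol. It runs backwards through the reversible steps of glycolysis and bypasses the irreversible ones with pyruvate carboxylase, phosphoenolpyruvate carboxykinase, fructose-1,6-bisphosphatase and glucose-6-phosphatase. Glycogen synthase stores glucose units as glycogen and glycogen phosphorylase releases them, and in adult vertebrates liver and kidney are the organs known for exporting glucose. The fish embryo feeds on its yolk through the yolk syncytial layer, a multinucleate layer at the yolk surface that is known for many genes of liver and intestine. How the series' question on yolk lipid supply relates to these enzymes is not stated in the labels.

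Levels are given as CPM (counts scaled to a common library size) after TMM scaling, with values in replicate order 1 to 4 or as mean ± SD (n = 4 libraries). They compare samples for the same gene; transcript lengths were not used, so no level is compared between genes. Calls are from the quasi-likelihood test of edgeR with Benjamini-Hochberg adjustment over all 26268 genes at a threshold of 0.05. In bulk tissue, fewer cells of a type and less RNA per cell cannot be told apart.

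Library totals ran from 32302472 to 39765045 counts. The syncytial layer markers in the marker list summed to between 122855 and 141833 CPM in yolk at 48 hpf, against 3710 to 6138 CPM in whole embryos, and mxtx1, an early regulator of that layer, averaged 407 CPM in yolk at 6 hpf against 32 CPM in whole embryos. The yolk libraries of 26 hpf were uneven. Their skeletal muscle markers summed to 7193, 36.4, 157 and 47.0 CPM, and replicate 1 thus stood apart from the others. Their neural markers summed to 357, 53.1, 26.6 and 56.1 CPM and their epidermis markers to 6842, 3313, 3054 and 378 CPM. In the same libraries the syncytial layer markers summed to 102986, 170684, 214922 and 262681 CPM. The erythroid markers summed to 493, 2005, 2100 and 2841 CPM. After TMM scaling 8 of the 10 genes were lowest in replicate 1 and 8 were highest in replicate 4. These values depend in part on the scaling. The TMM factors of these libraries fell from 0.937 in replicate 1 to 0.529 in replicate 4, and a lower factor gives a higher CPM. Before scaling the pck1 counts were 2639, 1864, 1660 and 1975, highest in replicate 1. Those of pck2 kept the order, with 31441, 37384, 37827 and 47495. Among the yolk libraries of 6 hpf replicate 2 stood apart, with 1766 CPM of epidermis markers beside 155 to 290 CPM and 85.5 CPM of macrophage and leukocyte markers beside 11.5 to 13.8 CPM, and pck1, fbp1a, g6pca.2, pygl and pygmb were highest in it. Without it the log2 differences of yolk over whole embryo at 6 hpf were 2.60 for pck1, 2.78 for g6pca.2 and -2.66 for pygmb (adjusted p = 0.00034, 8.3e-05 and 4.2e-10), and 0.47 for fbp1a and 0.09 for pygl, which were not called with or without it. At 26 hpf markers of heart (5 of 5 tested), macrophages (4 of 5) and erythroid cells (3 of 6) also passed the test as higher in yolk. Of all genes 20.6% were called higher there. In whole embryos of 48 hpf, 6 of the 10 genes were lowest in replicate 4. The part of these markers in the results was not tested, and values without a library of the groups compared are given where they changed a call.

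At each age 5 or more of the 10 genes were higher in yolk tissue than in whole embryos. At 6 hpf 5 genes were higher in yolk and 1 was lower, where 24.8% of all genes tested were called higher and 27.4% lower. At 10 hpf 7 were higher and 1 lower, against 24.5% and 29.9% of all genes. At 26 hpf 9 were higher and 0 lower, against 20.6% and 25.3% of all genes, and the 9 remained called without yolk replicate 1. At 48 hpf 8 were higher and 1 lower, against 22.8% and 27.5% of all genes. Tissues without overlap were common: 20.1, 22.7, 18.6 and 25.7% of all genes had every yolk library higher at the 4 ages. Every yolk library was lower for 23.4, 29.3, 28.2 and 32.3%. The median log2 difference of the 10 genes was 1.99, 3.70, 3.70 and 4.32 at the 4 ages, and that of all genes was -0.05, -0.22, -0.25 and -0.04. The genes pck1, pck2, fbp1b, g6pca.1 and g6pca.2 were higher in yolk at each of the 4 ages. Whole embryos hold the yolk, so each fold also depends on the share of yolk RNA in them, a part that was not tested. For comparison, the syncytial layer markers summed on average to 25531, 72484, 187818 and 129532 CPM in yolk at the 4 ages. In whole embryos they summed to 2344, 4817, 7158 and 4906 CPM. Scaling by library totals alone lowered the median log2 difference of all genes by 0.37, 0.87, 1.06 and 0.61 at the 4 ages, and the calls lost with it are given below.

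**Figure D1:**
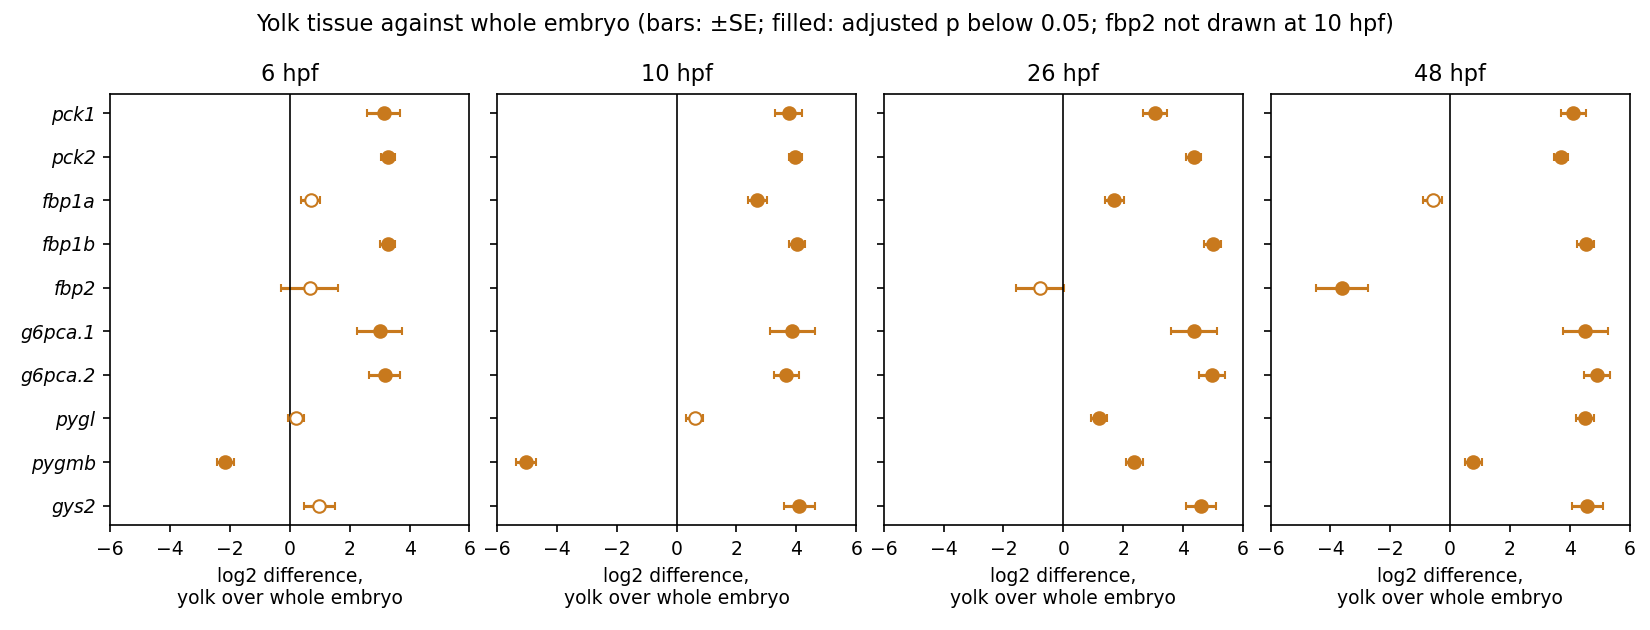
Log2 difference of yolk tissue over whole embryo (x axis) for each of the 10 genes (rows) at 6, 10, 26 and 48 hpf, with fbp2 not drawn at 10 hpf. Points are fitted differences, bars their SE, and filled points have an adjusted p below 0.05; pygmb lies at -2.16 and -5.02 at 6 and 10 hpf and at 2.37 and 0.78 at 26 and 48 hpf.

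Phosphoenolpyruvate carboxykinase makes phosphoenolpyruvate from oxaloacetate, in the cytosol with the pck1 product and in mitochondria with the pck2 product. Both genes were higher in yolk at every age, but in yolk pck2 was highest at 10 hpf and pck1 at 48 hpf. In yolk, pck2 averaged 6299 ± 933, 16377 ± 2249, 1683 ± 674 and 656 ± 80.2 CPM at 6, 10, 26 and 48 hpf. In whole embryos it averaged 647 ± 154, 1046 ± 163, 82.6 ± 8.11 and 50.1 ± 6.58 CPM at the same ages. At 10 hpf the yolk libraries had 19404, 14915, 16745 and 14443 CPM of pck2, against 1276, 910, 953 and 1047 CPM in whole embryos. The groups did not overlap, and pck2 was 15.6-fold higher in yolk (log2 difference 3.97 ± 0.23 SE, adjusted p = 2.4e-14). The difference was 9.73-fold at 6 hpf, 20.4-fold at 26 hpf and 13.1-fold at 48 hpf.

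The cytosolic gene pck1 was low at 6 hpf and rose at each step in yolk. It averaged 1.41 ± 0.907, 6.69 ± 2.46, 83.8 ± 14.4 and 353 ± 106 CPM in yolk at 6, 10, 26 and 48 hpf, and 0.158 ± 0.134, 0.495 ± 0.176, 10.1 ± 2.78 and 20.4 ± 8.91 CPM in whole embryos. At 48 hpf the yolk libraries had 397, 270, 482 and 262 CPM, against 23.2, 21.8, 28.8 and 7.81 CPM in whole embryos. Every yolk library was above every whole embryo library at each age. The difference at 48 hpf was 17.3-fold (log2 4.11 ± 0.42 SE, adjusted p = 5.3e-09), and at the earlier ages it was 8.74-, 13.4- and 8.32-fold. At the last step in yolk pck1 was 4.21-fold higher at 48 than at 26 hpf (adjusted p = 0.00016) while pck2 was 2.57-fold lower (adjusted p = 1.2e-05).

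Fructose-1,6-bisphosphatase removes a phosphate from fructose-1,6-bisphosphate; fbp1a and fbp1b are the paralogs of the mammalian liver form and fbp2 corresponds to the mammalian muscle form. The 3 genes went separate ways. Higher in yolk at each age, fbp1b averaged 2031 ± 194, 3464 ± 338, 1924 ± 947 and 766 ± 117 CPM in yolk, and 210 ± 50.8, 215 ± 17.7, 60.4 ± 18.2 and 33.3 ± 8.34 CPM in whole embryos. The 26 hpf yolk libraries had 1045, 1456, 1968 and 3226 CPM of fbp1b, against 54.1, 53.8, 46.6 and 87.2 CPM in whole embryos. The lowest yolk library was thus the one with muscle transcripts, and it still lay above every whole embryo library. The difference of 31.8-fold at 26 hpf (log2 4.99 ± 0.29 SE, adjusted p = 2.2e-14) stood beside 9.65-, 16.1- and 23.0-fold at 6, 10 and 48 hpf.

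The paralog fbp1a was higher in yolk at 10 and 26 hpf and passed the test at neither 6 nor 48 hpf. At 6 hpf yolk averaged 4.46 ± 1.83 CPM and whole embryos 2.75 ± 0.655 CPM (adjusted p = 0.069). The difference was called without yolk replicate 1 (adjusted p = 0.017), with DESeq2 size factors (adjusted p = 0.036) and by the DESeq2 Wald test (adjusted p = 0.028). Yolk libraries had 29.7, 25.9, 32.3 and 44.9 CPM at 10 hpf, against 5.03, 4.69, 6.51 and 4.25 CPM in whole embryos. That was a 6.48-fold difference without overlap (log2 2.7 ± 0.33 SE, adjusted p = 4.6e-08). At 26 hpf yolk libraries had 23.3, 26.7, 39.0 and 80.2 CPM, against 12.7, 12.9, 12.1 and 14.1 CPM. The 3.25-fold difference (log2 1.70 ± 0.32 SE, adjusted p = 6.9e-05) was not called under library totals alone (log2 0.48, adjusted p = 0.14). At 48 hpf yolk libraries had 7.40, 7.80, 15.8 and 8.38 CPM of fbp1a, against 15.1, 15.6, 13.9 and 14.1 CPM in whole embryos. Yolk replicates 1, 2 and 4 lay below all whole embryo libraries and replicate 3 lay above them, with a log2 difference of -0.58 ± 0.31 SE and adjusted p = 0.13. Without yolk replicate 3 fbp1a was called lower in yolk (log2 -0.90, adjusted p = 0.023). It was also called lower with the replicate number as a block in the libraries of 48 hpf (log2 -0.64, adjusted p = 0.026) and under library totals alone (log2 -1.19, adjusted p = 0.0012).

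The muscle-type gene fbp2 was the only one of the 10 called lower in yolk at 48 hpf, and its counts were low at 6 and 10 hpf. Whole embryos averaged 0.152 ± 0.193, 0.0199 ± 0.0398, 2.10 ± 0.204 and 13.3 ± 1.70 CPM at the 4 ages. In yolk it averaged 0.239 ± 0.281 CPM at 6 hpf, had 0 counts in all 4 libraries at 10 hpf, and averaged 1.21 ± 0.308 and 1.08 ± 0.905 CPM at 26 and 48 hpf. At 48 hpf the yolk libraries had 0.423, 0.785, 2.42 and 0.698 CPM, against 12.4, 13.6, 11.6 and 15.5 CPM in whole embryos. All yolk libraries lay below all whole embryo libraries, with a 12.2-fold difference (log2 -3.61 ± 0.86 SE, adjusted p = 0.001). Skeletal muscle markers differed in the same direction there, with a sum of 134 to 271 CPM in yolk against 28591 to 36245 CPM in whole embryos, and their part in the result was not tested. A count of 0 over the 10 hpf yolk libraries allows up to 0.0286 CPM, taken as 3 counts over the group. This limit covers counting error only and would be higher if fragments were counted more than once, since counts were mostly even. At 26 hpf the yolk libraries had 50, 34, 16 and 24 counts of fbp2, and no fold against the 10 hpf group is given.

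Glucose-6-phosphatase frees glucose from glucose-6-phosphate in the endoplasmic reticulum and is the step that lets a tissue export glucose. Of its catalytic subunit genes, g6pcb and g6pc3 were counted with the related genes, and their values are not given here. The catalytic subunit genes described here, g6pca.1 and g6pca.2, were higher in yolk at each age. In the RefSeq gene order of a later zebrafish assembly they lie near each other with 3 other genes between them, and fbp2 and fbp1a are direct neighbours. Reads of such related copies could have been split by the counting, so values of the single genes are uncertain to that extent.

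The gene g6pca.2 rose steeply in yolk between 6 and 26 hpf and then stayed at a level that did not pass the test of a further change. Its yolk libraries had 1.59, 2.97, 1.02 and 1.42 CPM at 6 hpf, 98.8, 63.5, 79.4 and 102 CPM at 10 hpf, 389, 811, 900 and 1601 CPM at 26 hpf and 954, 550, 1037 and 801 CPM at 48 hpf. Whole embryos averaged 0.192 ± 0.135, 6.76 ± 3.54, 29.5 ± 7.40 and 28.1 ± 4.8 CPM at these ages. No group of yolk libraries overlapped the whole embryo libraries of its age. The differences were 8.98-, 12.7-, 31.4- and 29.8-fold, with a log2 value of 4.97 ± 0.43 SE and adjusted p = 1.4e-10 at 26 hpf.

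The gene g6pca.1 had the largest SE among the genes called higher in yolk at every age. Its yolk libraries had 15.9, 9.82, 3.91 and 1.76 CPM at 6 hpf, against 2.46, 0.569, 0.270 and 0.593 CPM in whole embryos. At 10 hpf the yolk libraries had 44.8, 49.7, 11.5 and 15.9 CPM, against 4.30, 2.01, 0.784 and 1.19 CPM. Replicates 1 and 2 were thus the highest yolk libraries at both ages, and the tissues overlapped at 6 but not at 10 hpf. At 26 hpf yolk averaged 40.8 ± 28.0 CPM against 1.98 ± 0.999 CPM, and at 48 hpf 133 ± 55.7 CPM against 5.80 ± 2.78 CPM in whole embryos. The differences were 8.02-, 14.7-, 20.5- and 23.0-fold, with adjusted p = 0.0014 at 6 hpf and adjusted p = 1.7e-05 at 48 hpf.

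Glycogen phosphorylase cuts glucose-1-phosphate from glycogen. Its further genes pygma and pygb were counted with the related genes, and their values are not given here. The liver-type gene pygl and pygmb, a paralog of the mammalian muscle-type gene, followed different courses. At 6 and 10 hpf pygmb was lower in yolk and pygl was not called. At 6 hpf the pygmb values were lowest in yolk replicate 3, and the yolk libraries had 11.1, 21.2, 5.27 and 7.79 CPM, against 54.4, 51.5, 52.3 and 45 CPM in whole embryos. At 10 hpf they had 0.308, 0.831, 0.645 and 0.689 CPM, against 21.9, 17.9, 23.4 and 17.6 CPM. The groups did not overlap at either age, and the differences were 4.47-fold lower (adjusted p = 1.3e-07) and 32.5-fold lower (log2 -5.02 ± 0.34 SE, adjusted p = 4.9e-13) in yolk.

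At 26 hpf the direction was the other way round. The yolk libraries had 241, 438, 337 and 530 CPM of pygmb, against 56.8, 77.3, 77.3 and 88.7 CPM in whole embryos, a 5.15-fold difference without overlap (log2 2.37 ± 0.28 SE, adjusted p = 4.6e-08). After TMM scaling the library rich in muscle markers, replicate 1, was the lowest of the yolk libraries. Before scaling the yolk counts were 8325, 10985, 7085 and 9956, lowest in replicate 3. Without replicate 1 the log2 difference was 2.54 (adjusted p = 5.8e-09). At 48 hpf yolk libraries had 190, 196, 152 and 165 CPM, against 111, 105, 91.5 and 102 CPM in whole embryos. They did not overlap, and the 1.71-fold difference (log2 0.78 ± 0.27 SE, adjusted p = 0.016) was not called under library totals alone (log2 0.16, adjusted p = 0.63).

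The liver-type gene pygl was not called between the tissues before 26 hpf. Yolk averaged 15.6 ± 2.98, 4.06 ± 1.09 and 8.30 ± 2.93 CPM at 6, 10 and 26 hpf, and whole embryos 13.6 ± 1.32, 2.68 ± 0.511 and 3.64 ± 0.697 CPM. The differences of 1.15- and 1.52-fold at 6 and 10 hpf did not pass the test (adjusted p = 0.56 and 0.066). The second was called without yolk replicate 2 (adjusted p = 0.032) or whole embryo replicate 1 (adjusted p = 0.04). It was also called with DESeq2 size factors (adjusted p = 0.021) and by the DESeq2 Wald test (adjusted p = 0.017). Under library totals alone it ran the other way and was not called (log2 -0.28, adjusted p = 0.36). The 2.27-fold difference at 26 hpf passed the test (log2 1.18 ± 0.27 SE, adjusted p = 0.00071), though not under library totals alone (log2 0.05, adjusted p = 0.87). At 48 hpf yolk libraries had 588, 504, 604 and 371 CPM, against 30.3, 25.5, 24.6 and 9.82 CPM in whole embryos. The groups did not overlap, and the difference was 22.9-fold (log2 4.52 ± 0.30 SE, adjusted p = 5.5e-13). The hepatocyte marker fabp10a also appeared in yolk at 48 hpf, with 5.64, 12.4, 5.92 and 10.9 CPM against 0.485, 0.998, 0.320 and 0.748 CPM in whole embryos, and in yolk at 26 hpf it had 0 counts in 3 of 4 libraries. Of the 10 liver markers 2 were called higher in yolk at 48 than at 26 hpf, 1 lower and 7 neither. Of all genes 12.0% were called higher at this step and 16.1% lower. Their sums were 46155 to 63615 CPM at 48 hpf against 29824 to 73005 CPM at 26 hpf. These sums were already high in yolk at 26 hpf, where fabp10a had 0 counts in 3 of 4 libraries. They therefore cannot show whether liver cells were present. The part of liver cells was not tested for pygl, nor for pck1 and g6pca.1, which also had their highest mean in yolk at 48 hpf.

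The gene gys2 encodes liver-type glycogen synthase, which lengthens glycogen chains. The other glycogen synthase gene, gys1, was counted with the related genes, and its values are not given here. Levels of gys2 were higher in yolk from 10 hpf on. At 6 hpf yolk averaged 1.89 ± 1.09 CPM against 0.965 ± 0.678 CPM in whole embryos, with overlapping libraries (log2 0.98 ± 0.52 SE, adjusted p = 0.12), a difference that was called without yolk replicate 3 (adjusted p = 0.034) or whole embryo replicate 1 (adjusted p = 0.035). At 10 hpf yolk libraries had 15.3, 25.7, 15.4 and 13.0 CPM, against 0.243, 1.2, 1.52 and 1.07 CPM, a 17.2-fold difference without overlap (adjusted p = 1.2e-07). At 26 hpf they had 109, 204, 221 and 381 CPM, against 8.86, 10.2, 9.31 and 9.30 CPM. At 48 hpf yolk averaged 174 ± 35.3 CPM against 7.29 ± 2.08 CPM. The late differences of 24.2- and 23.9-fold had log2 values of 4.60 ± 0.51 SE and 4.58 ± 0.51 SE (adjusted p = 2.4e-08 and 2.7e-08).

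**Figure D2:**
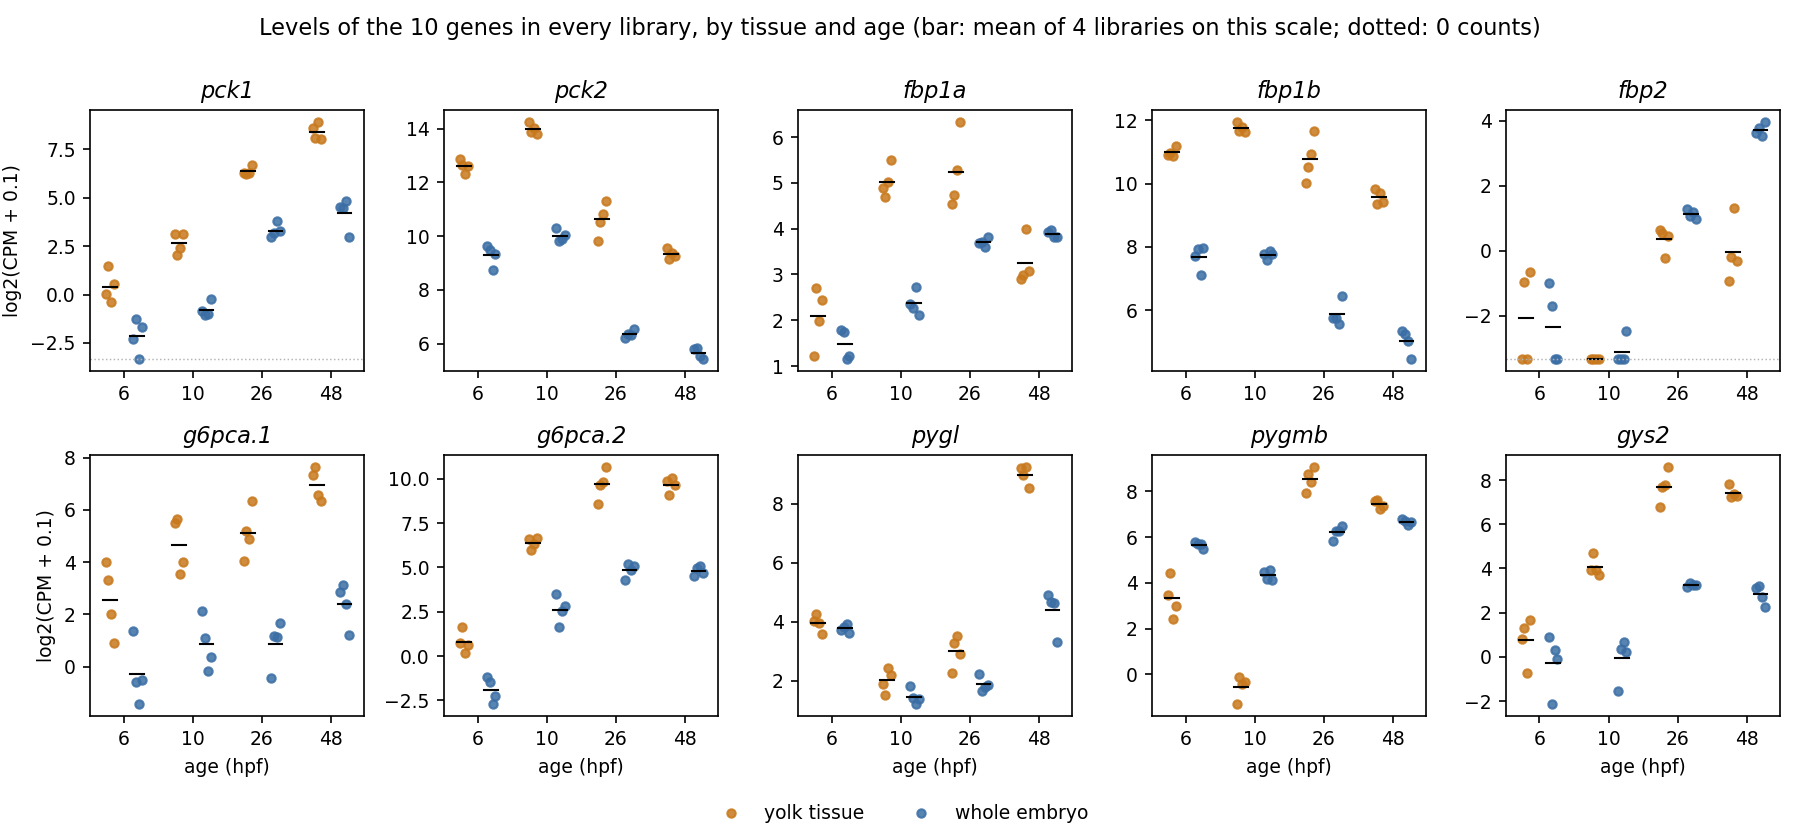
Level of each of the 10 genes in every library, as log2(CPM + 0.1) (y axis) by age in hpf (x axis). Yolk tissue (orange) stands left of whole embryo (blue), a point is a library, a bar the mean of 4 libraries on this scale and the dotted line 0 counts; pck2 and fbp1b are highest in yolk at 10 hpf, and pygl stays low until its 371 to 604 CPM in yolk at 48 hpf.

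Between 6 and 10 hpf all 10 genes changed in yolk. Called higher at 10 hpf were 7 genes, where 25.8% of all genes were, and 3 were lower, where 23.4% of all genes were. The largest increases were those of g6pca.2 (48.9-fold), gys2 (9.09-fold) and fbp1a (7.42-fold), and pck1 was 4.71-fold higher. The genes pck2 and fbp1b were 2.60- and 1.71-fold higher. The increase of g6pca.1 was 3.89-fold (adjusted p = 0.02), and it was not called without yolk replicate 3 or 4 of 6 hpf or without yolk replicate 1 or 2 of 10 hpf (adjusted p between 0.056 and 0.068). Both phosphorylase genes described here fell, pygmb by 18.3-fold and pygl by 3.85-fold. The gene fbp2 was at 0 counts in all yolk libraries of 10 hpf, and the yolk libraries of 6 hpf had 0, 12, 0 and 16 counts. This fall was not called with the replicate block (adjusted p = 0.16) or in the libraries of these 2 groups alone (adjusted p = 0.066).

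In whole embryos 4 genes were higher at 10 than at 6 hpf and 2 were lower, against 21.2% and 20.0% of all genes. They were g6pca.2 (34.5-fold), pck1 (3.07-fold), fbp1a (1.86-fold) and pck2 (1.62-fold), and pygl (5.09-fold) and pygmb (2.51-fold) in the lower direction. The pck1 call (adjusted p = 0.028) was lost without whole embryo replicate 1 or 3 of 6 hpf or replicate 4 of 10 hpf. The fbp1a call (adjusted p = 0.025) was lost without replicate 3 or 4 of 6 hpf or replicate 3 of 10 hpf, and the adjusted p in these cases ran from 0.07 to 0.096. Other changes were called on leaving out a library: g6pca.1 was higher without replicate 1 of 6 hpf (adjusted p = 0.042), and fbp2 was lower without replicate 3 or 4 of 6 hpf (adjusted p = 0.036 each) or replicate 4 of 10 hpf (adjusted p = 0.017). The change differed between the tissues for 3 of the genes. It was greater in yolk for fbp1a (log2 1.99 ± 0.45 SE, adjusted p = 0.0011) and gys2 (3.12 ± 0.71 SE, adjusted p = 0.0014), where 13.8% of all genes were called in that direction, and the fall of pygmb was deeper in yolk (-2.86 ± 0.42 SE, adjusted p = 5.4e-06), where 13.0% were. With the replicate block the differences of pck2 (0.68, adjusted p = 0.0066) and fbp1b (0.73, adjusted p = 0.011) were also called, and that of pck2 was called without whole embryo replicate 3 of 6 hpf (0.84, adjusted p = 0.028).

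Between 10 and 26 hpf pck2 and fbp1b fell in yolk while pygmb, gys2, pck1, g6pca.2, pygl and fbp2 rose. Of the 10 genes 6 were higher at 26 hpf, against 33.3% of all genes, and 2 were lower, against 23.1%. The rise of pygmb was 622-fold (log2 9.28 ± 0.39 SE, adjusted p = 2.4e-17), that of gys2 13.2-fold, that of pck1 12.5-fold, that of g6pca.2 10.8-fold and that of pygl 2.04-fold. The fall was 9.73-fold for pck2 and 1.80-fold for fbp1b, while fbp1a (1.27-fold) and g6pca.1 (1.34-fold) did not pass the test. Libraries of both ages overlapped for pygl and fbp1b. Neither was called by edgeR with the replicate block in these libraries (adjusted p = 0.056 and 0.053). A pairing by number is not seen at this step in yolk, where same-numbered libraries had correlations of -0.11 to -0.016. In whole embryos 6 genes were higher and 2 lower, against 30.0% and 26.0% of all genes, with pck1 (20.1-fold), gys2 (9.33-fold), g6pca.2 (4.35-fold) and pygmb (3.71-fold) among the higher and pck2 (12.7-fold) and fbp1b (3.55-fold) the lower. The difference between the tissues was largest for pygmb (log2 7.39 ± 0.44 SE, adjusted p = 7.6e-13). Such differences, at this step and the others, also depend on changes in the share of yolk RNA in whole embryos, which were not tested. The other called gene, fbp1b, fell less in yolk (0.98 ± 0.34 SE, adjusted p = 0.031), where 17.1% of all genes were called in this direction and 12.3% in the other. That call was lost without any of 7 libraries of these groups (adjusted p between 0.052 and 0.13): yolk replicates 2 and 4 of 10 hpf and 4 of 26 hpf, and whole embryo replicates 3 of 10 hpf and 1, 2 and 3 of 26 hpf. Without yolk replicate 4 of 26 hpf fbp1a was called instead, with a change that ran lower in yolk (-1.50, adjusted p = 0.0036). The change of g6pca.2 was called greater in yolk without yolk replicate 1 of 26 hpf (1.56, adjusted p = 0.012) or whole embryo replicate 2 of 10 hpf (1.55, adjusted p = 0.021).

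Between 26 and 48 hpf the phosphorylase genes pygl and pygmb changed in opposite directions in yolk. The rise of pygl was 62.4-fold (log2 5.96 ± 0.32 SE, adjusted p = 1.7e-13), and pygmb fell by 2.20-fold (adjusted p = 0.0017). Called higher were pygl and pck1, 2 genes where 12.0% of all genes were. Called lower were pck2, fbp1a (4.29-fold), fbp1b (2.51-fold) and pygmb, 4 genes where 16.1% were. The falls of pck2 and fbp1b were not called by edgeR with the replicate block in the yolk libraries of these ages (adjusted p = 0.051 and 0.074). Same-numbered yolk libraries did not deviate together at this step (correlations -0.23 to 0.088), so a pairing by number is not seen there. The 3.27-fold difference of g6pca.1 (adjusted p = 0.059) was called without yolk replicate 4 of 26 hpf (adjusted p = 0.025). Levels of g6pca.2 and gys2 differed by 1.11- and 1.31-fold without passing the test.

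In whole embryos pygl (6.19-fold) and fbp2 (6.30-fold) were higher at 48 than at 26 hpf, against 12.5% of all genes, and pck2 (1.65-fold) and fbp1b (1.82-fold) were lower, against 9.83%. The fbp2 call (adjusted p = 0.02) was lost without any of whole embryo replicates 1 to 4 of 26 hpf or replicate 4 of 48 hpf (adjusted p between 0.05 and 0.056). Its libraries of the 2 ages did not overlap, and 26.9% of all genes had every library higher at 48 hpf. By edgeR with the replicate block in these libraries fbp2 was called (adjusted p = 1.6e-07), though same-numbered libraries correlated by only -0.03 to 0.22. The fbp1b call (adjusted p = 0.011) was lost without replicate 4 of either age (adjusted p = 0.076 and 0.054). The pck1 difference of 2.02-fold (adjusted p = 0.054) was called without replicate 3 of 26 hpf (adjusted p = 0.042) or replicate 4 of 48 hpf (adjusted p = 0.014). The change of pygl was greater in yolk (log2 3.33 ± 0.38 SE, adjusted p = 3.1e-07), where 9.29% of all genes were called in that direction. Those of fbp1a (-2.28 ± 0.44 SE, adjusted p = 0.00038) and pygmb (-1.59 ± 0.38 SE, adjusted p = 0.0027) ran lower in yolk, where 13.2% were. That of pck2 was called lower without yolk replicate 1 of 26 hpf (-0.84, adjusted p = 0.012) and that of fbp2 without yolk replicate 3 of 48 hpf (-3.58, adjusted p = 0.035). The fbp2 difference was also called by edgeR in the libraries of the contrast alone (-2.82, adjusted p = 0.0013). The DESeq2 Wald test called it too (-2.93, adjusted p = 0.043).

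**Figure D3:**
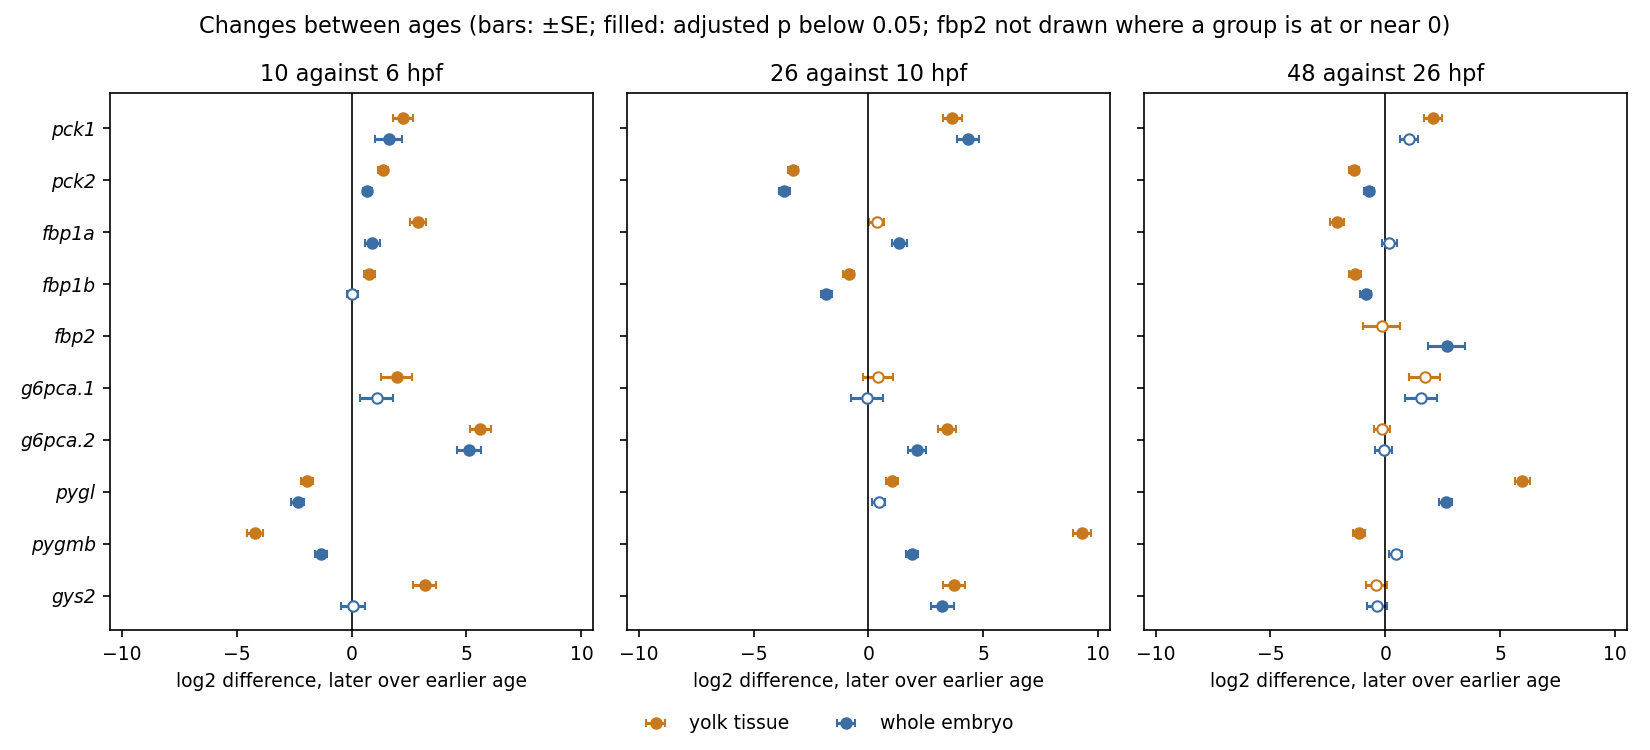
Log2 difference of the later over the earlier age (x axis) for each gene (rows) at the 3 steps in age, with fbp2 drawn only at the last step. Yolk tissue (orange) is drawn above whole embryo (blue), bars are SE and filled points have an adjusted p below 0.05; pygmb in yolk lies at -4.19, 9.28 and -1.14 at the successive steps, and pygl in yolk reaches 5.96 at the last step.

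Set against its own highest group mean, each gene had its peak in yolk except fbp2, which peaked in whole embryos at 48 hpf. The peak was in yolk at 10 hpf for pck2 and fbp1b, at 26 hpf for fbp1a, g6pca.2, pygmb and gys2, and at 48 hpf for pck1, g6pca.1 and pygl. Neighbours in this order were not always apart: g6pca.2 and gys2 at 48 hpf stood at 90.3% and 76.1% of their 26 hpf level, and fbp1a at 10 hpf at 78.5%, with none of these differences passing the test. The gene g6pca.1 in yolk at 26 hpf stood at 30.6% of its 48 hpf level. Its libraries of the 2 ages overlapped, and the edgeR test did not call the difference (adjusted p = 0.059). In contrast pck2 at 48 hpf stood at 4.00% of its peak and pygl at 26 hpf at 1.61%. Over the 8 group means of log2(CPM + 0.5), Pearson's r was 0.96 between g6pca.2 and gys2, 0.94 between pck1 and gys2 and 0.93 between pck2 and fbp1b, and it was -0.19 between pck1 and pck2. These values are descriptions, since the points share libraries and scaling, and whole embryos hold the yolk.

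**Figure D4:**
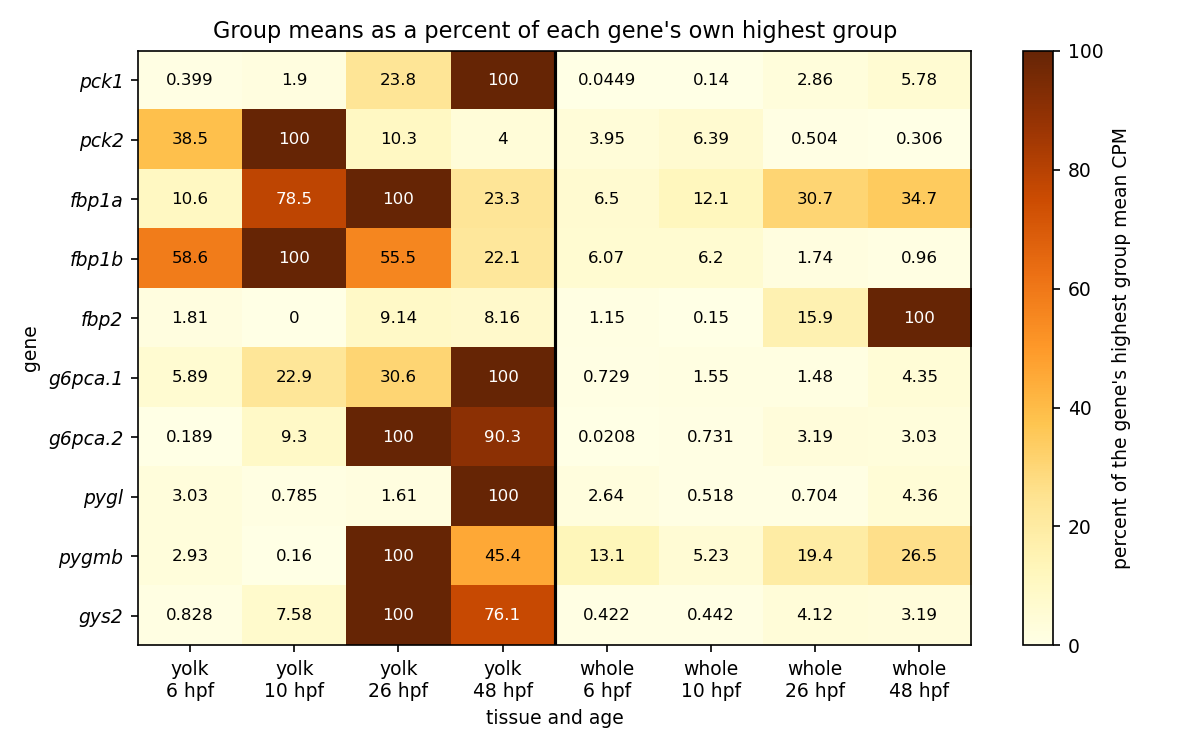
Group mean CPM as a percent of the gene's own highest group (colour and printed value) for the 10 genes (rows) in the 4 yolk and the 4 whole embryo groups (columns). In whole embryos the genes other than fbp2 stay at or below 34.7% of their peak, and pygl in yolk stands at 3.03% or less before 48 hpf.

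Among 12610 other genes, those of most similar profile over the 8 group means were found for each gene. For pck2 they were nipsnap1 (r = 0.996), bco2l (0.994), which encodes a carotenoid-cleaving oxygenase, and rundc3b (0.991). For fbp1b they were cst3 (0.996), the gene of the protease inhibitor cystatin C, eepd1 (0.995) and cyp2aa4 (0.992). The nearest profiles to g6pca.2 were those of the complement gene c3a.1 (0.998), ces2 (0.998) and ambp (0.997), and to gys2 those of the complement gene c3b.1 (0.995), vmo1b (0.995) and tspan13a (0.992). As an example, c3a.1 averaged 11, 483, 5534 and 3608 CPM in yolk at the 4 ages. For pck1 the nearest were ugt1a7 (0.989), slc12a7b (0.989) and XLOC_009557 (0.988), and for g6pca.1 asah1b (0.986), sfxn5b (0.980) and ces3 (0.978). The remaining genes had atp6v1aa (0.979), scamp3 and ablim1b (both 0.974) for fbp1a and ctnnd2a (0.995), shox2 (0.994) and and2 (0.993), a gene of the fin fold, for fbp2. The least matched were pygl, with cldn15lb (0.960), ccl25a (0.959) and cx32.3 (0.948), and pygmb, with csrp1a (0.961), acadvl (0.951) and ttc13 (0.950). With 8 points each, such values rank genes and carry no test.

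Lists of related genes are read against all genes tested, of which 24.8, 24.5, 20.6 and 22.8% were higher in yolk at 6, 10, 26 and 48 hpf and 27.4, 29.9, 25.3 and 27.5% were lower. Of 21 other genes that feed gluconeogenesis or handle its product, 7, 11, 8 and 10 were higher in yolk at 6, 10, 26 and 48 hpf, and 1, 4, 8 and 5 were lower. At 48 hpf that was 47.6% higher, and 23.8% lower, a share near that of all genes. Pyruvate carboxylase, the first bypass enzyme, is encoded by pcxa and pcxb. The gene pcxb averaged 20.4 ± 6.77, 914 ± 156, 4725 ± 2137 and 1191 ± 163 CPM in yolk and 2.50 ± 1.27, 69.5 ± 5.85, 176 ± 59.6 and 60.5 ± 24 CPM in whole embryos. It was 8.14-, 13.1-, 26.9- and 19.7-fold higher in yolk. The paralog pcxa, added after its values were seen, averaged 11.8 ± 2.83, 14.2 ± 3.04, 49.7 ± 20.1 and 81.5 ± 30.2 CPM in yolk and 14 ± 3.16, 17 ± 3.04, 80.1 ± 10.9 and 45.3 ± 7.11 CPM in whole embryos. It was not called at 6 and 10 hpf, 1.61-fold lower in yolk at 26 hpf (adjusted p = 0.03) and 1.80-fold higher at 48 hpf (adjusted p = 0.0073). So at each age every bypass step had at least 1 gene higher in yolk. Not all paralogs were: pcxa was lower at 26 hpf and fbp2 at 48 hpf, and fbp1a was not called at 6 and 48 hpf. The values of g6pcb and g6pc3, further genes of the glucose-6-phosphatase step, are not given here. How often steps of other pathways would meet this rule was not counted. The glucose transporter gene slc2a2 was not called at 6 hpf and 15.1-, 26.9- and 21.9-fold higher afterwards, with a 567-fold rise in yolk between 6 and 10 hpf (0.457 ± 0.558 CPM at 6 hpf). The paralogs of the glucose-6-phosphate transporter differed: slc37a4a was 18.3-fold higher in yolk at 48 hpf (115 ± 8.64 against 6.25 ± 1.28 CPM) and slc37a4b 15.2-fold lower (2.29 ± 0.560 against 34.9 ± 1.99 CPM). The lactate dehydrogenase gene ldhba was 6.16-fold higher in yolk at 48 hpf.

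The reversible enzymes shared with glycolysis had 6, 8, 6 and 7 of 19 higher in yolk and 2, 2, 7 and 8 lower. At 6 hpf 31.6% were higher, and at 48 hpf 36.8% were higher and 42.1% lower. At 48 hpf gapdh averaged 2803 ± 476 CPM in yolk against 686 ± 109 CPM in whole embryos. Lower at 48 hpf were pgam2 (68.3-fold), aldoab (65.0-fold) and eno2 (39.7-fold), whose mammalian counterparts are known from muscle or neurons. Of 14 one-way glycolysis enzymes 3, 4, 3 and 4 were higher and 4, 3, 5 and 8 lower, which at 48 hpf was 28.6% and 57.1%. Lower at 48 hpf were pfkmb (342-fold), pkmb (204-fold) and pfkma (169-fold), while the glucokinase gene gck (21.4-fold, 10.0 ± 2.63 against 0.465 ± 0.163 CPM) and the liver-type pyruvate kinase gene pklr (18.4-fold, 507 ± 233 against 27.6 ± 14.2 CPM) were higher. For ldha the 1.35-fold difference at 48 hpf did not pass the test, with 219 ± 36.8 CPM in yolk and 162 ± 21.6 CPM in whole embryos. Skeletal muscle markers (9 of 11 lower at 48 hpf) and neural markers (6 of 6 lower) moved with these lower genes, where 27.5% of all genes were lower. The part of these markers was not tested.

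Of 30 other glycogen genes 15, 16, 12 and 10 were higher in yolk and 2, 2, 5 and 8 lower. At 6 hpf 6.67% were lower, and at 48 hpf 33.3% were higher and 26.7% lower, the last being near the share of all genes. The glycogen-binding protein gene stbd1 was 20.7-fold higher at 48 hpf and, like pck2, most abundant in yolk at 10 hpf (2066 ± 313 CPM). Regulatory subunits that bring protein phosphatase to glycogen were among the higher genes, with ppp1r3b at 4.72-fold and ppp1r3ab at 4.08-fold at 48 hpf. The phosphoglucomutase gene pgm1, which joins glycogen to glucose-6-phosphate, averaged 628 ± 325 CPM in yolk at 26 hpf against 50.1 ± 4.12 CPM. Of the genes of glycogenin, the primer of glycogen, gyg1b was 19.4-fold lower at 48 hpf (0.636 ± 0.17 against 12.4 ± 0.888 CPM). The values of gyg1a and gyg2 are not given here.

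Regulators had 10, 20, 20 and 16 of 33 higher in yolk and 10, 6, 4 and 7 lower. At 6 hpf both shares were 30.3%, near those of all genes, while at 26 hpf 60.6% were higher and 12.1% lower. The nuclear receptor gene hnf4a was 21.2-fold higher at 48 hpf, the receptor gene nr0b2a, which encodes a repressor of other nuclear receptors, 25.5-fold, and cebpa, a liver and fat transcription factor, 11.5-fold. Both preproglucagon genes were higher in yolk at 48 hpf, gcga at 21.7-fold (14.9 ± 6.12 against 0.680 ± 0.292 CPM) and gcgb at 20.4-fold (33.0 ± 5.87 against 1.62 ± 0.324 CPM). In yolk gcgb was 34.9-fold higher at 48 than at 26 hpf. The hepatocyte marker fabp10a also rose in yolk at this step. Whether cells from outside the yolk contributed to these values was not tested. Unlike pck1, hnf4a was highest in yolk at 6 hpf and fell at the next step by 4.19-fold.

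**Figure D5:**
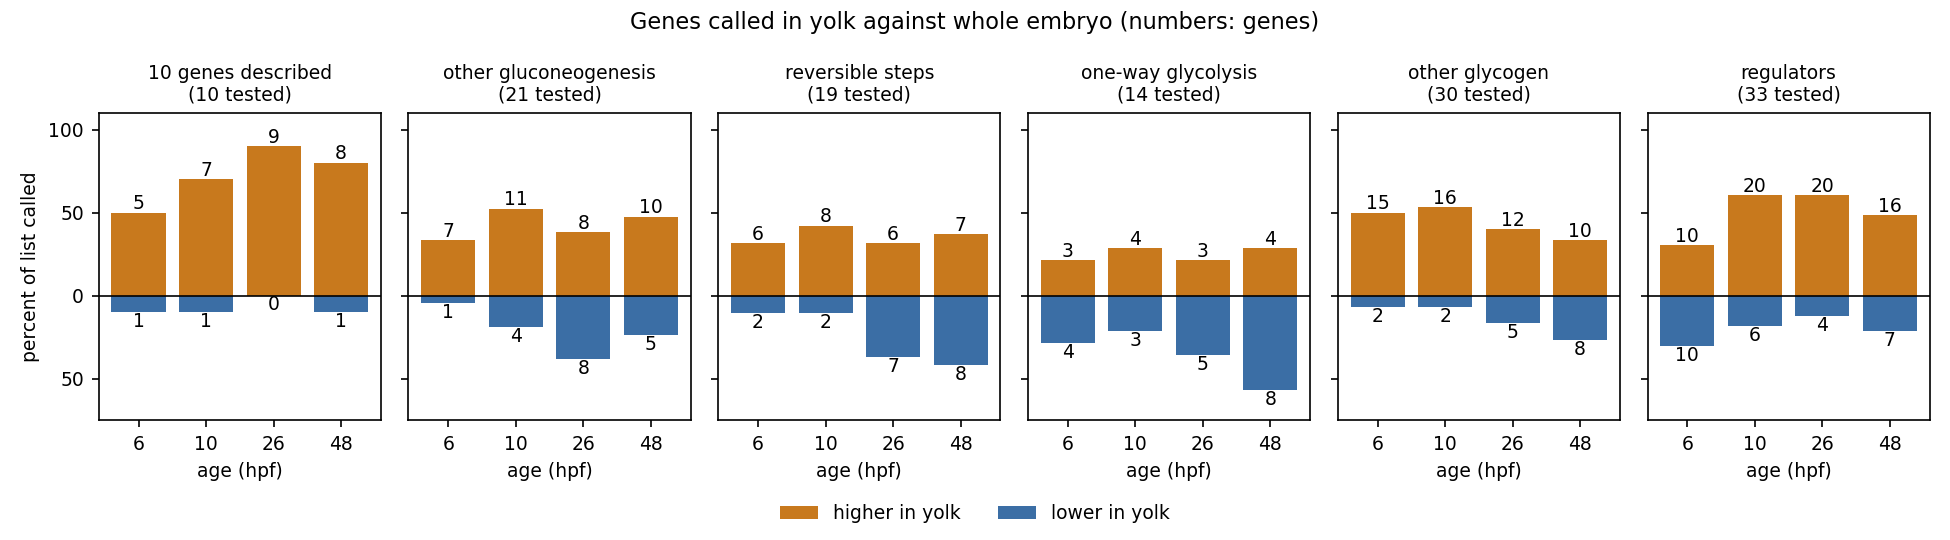
Percent of each gene list called higher (orange, upwards) and lower (blue, downwards) in yolk tissue against whole embryo (y axis) at 6, 10, 26 and 48 hpf (x axis), with the number of genes printed. The 10 genes have 5, 7, 9 and 8 called higher, and the one-way glycolysis enzymes have 8 of 14 called lower at 48 hpf.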

How the data were processed

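The kit was NEBNext Ultra II RNA on TRIzol-extracted total RNA, per the labels' protocols. The deposited values are raw read counts per gene symbol, 1 column per library, not normalized. Per the submitters' processing notes the tools were STAR 2.7.10b and featureCounts 2.0.6, after FastQC 0.12.1 and Trim Galore 0.6.10, with GRCz11 as the build. Not given in the sources used here were the annotation and the strand and pairing settings of the counting, so reads of antisense or overlapping genes could not be separated. Small counts were mostly even: 79.4% of values between 1 and 20, 72.6% between 21 and 100 and, for the 10 genes, 70.2% of 168 values between 1 and 1000. The cause was not tested, and counts may exceed the number of independent fragments.

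Body tissue (16 of the 48 samples) was not analysed here, and the 32 libraries used were grouped from their titles. Every pair of replicates differed beyond sampling noise, with a chi-square per gene of 17.6 or more. Genes were filtered by filterByExpr (minimum count 10, minimum total 15). After TMM scaling, edgeR 4.0.16 (R 4.3.3) fitted 8 group means by robust quasi-likelihood, with 24 residual degrees of freedom. Contrasts numbered 13: yolk minus whole embryo at each of 4 ages, 3 steps in age per tissue, and 3 differences of change between tissues. Tests were two-sided, and SE is the log2 difference over the root of its F. Alternatives were DESeq2 1.42.0 (size factors or its Wald test), library totals, no filter, a replicate block, the contrast's libraries alone and each library left out. The code was tested on simulated counts.

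Same-numbered libraries deviated together over 9034 genes in yolk against whole embryo (correlations 0.23 to 0.43, 0.19 to 0.38, 0.22 to 0.31 and 0.2 to 0.41 at the 4 ages) and in yolk at 10 against 6 hpf (0.22 to 0.3). This pairing is read from the data, as the labels leave the meaning of the numbers open. Each of the other 5 steps had a pair at or below the limit of 0.1.

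The 10 genes and the gene lists were chosen with earlier results of these data known. Named beside the 10 genes are, from each pathway list, up to 4 called genes with a mean of at least 10 CPM and the largest difference between yolk and whole embryo at 48 hpf, the 2 highest in yolk at 48 hpf, and the 3 genes of nearest profile (pseudocount 0.5). A gene of the reversible steps that met this rule is not reported here. Listed symbols were matched by name, and gsk3ba and gsk3bb by a RefSeq synonym. Gene order comes from RefSeq (GRCz12tu). No sequence, length or coordinate was used.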

Additional observations from a re-analysis of the deposited data

Results flagged for a closer look

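Each of the 10 genes was looked at in 8 groups of 4 libraries. There 6 values stood apart from the other 3 of their group by the gap test at the 95% level. Chance alone meets this level in about 1 in 20 groups. The level of pck1 was 105 CPM in yolk replicate 4 of 26 hpf, beside 74.3 to 79.0 CPM, and 0.755 CPM in whole embryo replicate 4 of 10 hpf, beside 0.386 to 0.446 CPM. Before scaling the pck1 counts in yolk at 26 hpf were 2639, 1864, 1660 and 1975, highest in replicate 1. Replicate 4 thus stood apart only after TMM scaling. The level of fbp1a was 15.8 CPM in yolk replicate 3 of 48 hpf, beside 7.40 to 8.38 CPM. Whole embryo replicate 4 of 10 hpf had 0.0795 CPM of fbp2, beside 0 in the other libraries. That value was 4 counts, and beside 0 in the others any count would be flagged. Whole embryo replicate 1 of 6 hpf had 2.46 CPM of g6pca.1, beside 0.270 to 0.593 CPM, and yolk replicate 1 of 48 hpf had 226 CPM of gys2, beside 152 to 164 CPM.

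The change with age differed between yolk and whole embryo, by the edgeR quasi-likelihood test of the difference itself, in 8 cases. These are out of 10 genes at each of 3 steps. Of all genes 13.8, 17.1 and 9.29% were called in the direction of yolk at these steps and 13.0, 12.3 and 13.2% in the other. Between 6 and 10 hpf the log2 difference of changes, yolk minus whole embryo, was 1.99 ± 0.45 SE for fbp1a (adjusted p = 0.0011), 3.12 ± 0.71 for gys2 (adjusted p = 0.0014) and -2.86 ± 0.42 for pygmb (adjusted p = 5.4e-06). Between 10 and 26 hpf it was 7.39 ± 0.44 for pygmb (adjusted p = 7.6e-13) and 0.98 ± 0.34 for fbp1b (adjusted p = 0.031). Between 26 and 48 hpf it was 3.33 ± 0.38 for pygl (adjusted p = 3.1e-07), -2.28 ± 0.44 for fbp1a (adjusted p = 0.00038) and -1.59 ± 0.38 for pygmb (adjusted p = 0.0027). The pygmb transcript is thus listed at each step. The fbp1b call was lost on leaving out some single libraries, as given above, and under library totals alone (adjusted p = 0.083). It was also lost with DESeq2 size factors (adjusted p = 0.082) and by the DESeq2 Wald test (adjusted p = 0.072). All of these differences also depend on the share of yolk RNA in whole embryos, a part that was not tested.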

How the results depend on the processing

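Over all alternatives the 10 genes gave 5070 values in the 13 comparisons. Of these, 4965 stayed called or stayed not called, 40 were no longer called, 65 became called and 0 calls were reversed. Values that were not called could change direction. For pygl in yolk against whole embryo at 10 hpf the log2 difference was 0.60, and under library totals alone it was -0.28. A replicate block fitted on all libraries changed no count beyond 1.5 times. Leaving out each library in turn gave 1 to 2 of the 10 genes lower in yolk at 48 hpf, 2 to 4 higher in whole embryos at 10 against 6 hpf, 1 to 3 higher and 1 to 2 lower in whole embryos at 48 against 26 hpf, and 1 to 3 higher and 0 to 1 lower for the tissue difference between 10 and 26 hpf. Calls of fbp1a and pygl in yolk against whole embryo (6 and 10 hpf), g6pca.1 in yolk and pck1 in whole embryos at 48 against 26 hpf, and the tissue differences of pck2 (6 to 10 hpf) and g6pca.2 (10 to 26 hpf) also appeared without some libraries of groups outside the comparison, which share its spread. The cause was not tested for any of these changes. Depth limits fbp2 at 6 and 10 hpf, where it had few or 0 counts. Counts were also low in whole embryos of 6 hpf for pck1 (4, 12, 0 and 8) and g6pca.2 (13, 10, 2 and 4). In yolk of 10 hpf pygmb had 8, 22, 17 and 18 counts. Folds against these groups are uncertain to that extent.

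With library totals alone, genes higher and lower in yolk over all genes numbered 3931 and 12344 at 10 hpf, 2633 and 14969 at 26 hpf and 3029 and 11166 at 48 hpf, and 5986 and 2626 in yolk at 48 against 26 hpf. Called lower in whole embryos at 10 against 6 hpf were 2865 genes. For the tissue differences it gave 1884 higher and 5323 lower between 6 and 10 hpf, 2903 higher between 10 and 26 hpf, and 4500 higher and 1992 lower between 26 and 48 hpf. Of the 10 genes it gave 2 lower in yolk at 48 hpf, 1 higher and 1 lower for the tissue difference between 10 and 26 hpf and 2 higher between 26 and 48 hpf.

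With the libraries of the contrast alone, 4033 genes were lower in yolk at 26 hpf, 2785 were lower in yolk at 48 against 26 hpf, and 6452 were higher and 5758 lower in whole embryos at 48 against 26 hpf. Of the 10 genes 2 were lower in yolk at 48 hpf, 4 were higher in whole embryos at 48 against 26 hpf and 4 higher for the tissue difference between 6 and 10 hpf. With the replicate block in those libraries, 4160 genes were lower in yolk at 26 hpf, 5495 higher in yolk at 26 against 10 hpf, 1837 higher and 1828 lower in yolk at 48 against 26 hpf, and 6455 higher and 5868 lower in whole embryos at that step. Of the 10 genes the block gave 2 lower in yolk at 48 hpf, 1 lower in yolk at 26 against 10 hpf, 2 lower in yolk at 48 against 26 hpf and 4 higher for the tissue difference between 6 and 10 hpf. Where the numbers pair the libraries it changed no call of the 10 genes beyond those given with the results.

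The DESeq2 Wald test gave 4 of the 10 genes higher in whole embryos at 48 against 26 hpf, and 1 higher and 1 lower for the tissue difference between 10 and 26 hpf. DESeq2 size factors gave 1 higher for that difference, where fbp1b was not called (adjusted p = 0.082).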
